A study of Mus musculus with 23 samples.

Results

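This account follows 9 mouse genes tied to Alzheimer's disease and to insulin breakdown in the hippocampus: App, Bace1, Psen2, Mapt, Apoe, Clu, Sorl1, Ide and Trem2. They were taken by symbol from a table of 45706 genes, each matched 1 gene identifier, and all 9 passed the filter on low counts. Libraries came from the hippocampus of female mice that carried Ins2 (Ins2+/+, WT, 12 libraries) or lacked it (Ins2-/-, KO, 11 libraries). Mice have a pair of insulin genes, of which Ins2 is one. The labels give neither age nor strain, no treatment, and not whether each library came from its own animal, so p-values measure the spread between libraries.

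Amyloid beta is cut from the amyloid precursor protein App, first by the beta-secretase Bace1 and then by gamma-secretase, whose catalytic subunit Psen2 can supply. Ide, the insulin-degrading enzyme, is a zinc peptidase that cleaves both insulin and amyloid beta, which is why it is read here beside the loss of an insulin gene. Sorl1 routes App through endosomes, Apoe and Clu are apolipoproteins made largely by astrocytes, Mapt encodes the microtubule protein tau, and Trem2 is a lipid-sensing receptor of microglia. Variants of several of these genes are known to alter the risk of Alzheimer's disease in people.

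WT libraries held 13792274 to 22520798 counts and KO libraries 14863640 to 22953261. Ins2 had 0 counts in all 11 KO libraries, which allows up to 0.0156 CPM on plain totals, taking 3 counts over the summed total of these libraries. WT held 26 Ins2 counts, 18 of them in WT library 17, and only 7 of 12 WT libraries had any. A count of 0 in a single library therefore does not tell the genotypes apart. Levels from here on are in CPM in another form, a gene's counts scaled to a common library size with TMM factors. KO library 8 stood apart. Its 12 hypothalamic marker genes summed to 1558 CPM against 1.98 to 9.73 CPM in the other libraries. Its 9 CA1 and CA3 genes, which mark hippocampal pyramidal cells, summed to 368 CPM against 1223 to 1915 CPM. WT libraries 14 and 17 and KO libraries 2, 6 and 12 were high in choroid plexus genes, with a 14-gene sum of 3350 to 21370 CPM against 36.6 to 114 CPM elsewhere. Fold changes are therefore given with and without KO library 8, and choroid values stand beside the genes they move with.

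None of the 9 genes differed between genotypes at an adjusted p below 0.05 (edgeR quasi-likelihood test, Benjamini-Hochberg over 15828 genes). Across all tested genes 0.0126% were called, 0.00632% higher and 0.00632% lower in KO, so a count of 0 among 9 is near that background. At an unadjusted p below 0.05 the count was also 0 of 9, against 5.74% of all tested genes (3.41% higher and 2.34% lower in KO). The same held without KO library 8, with 0 of 9 at either threshold against 0.0126% and 4.11% of 15870 genes (2.18% higher and 1.93% lower in KO at the unadjusted threshold). WT and KO ranges in CPM were apart for 0 of the 9 genes, against 0.0126% of all tested genes, and for 0 of 9 without KO library 8, against 0.0126%.

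The 95% intervals of the log2 fold change were narrowest for App, from -0.11 to 0.07 on the log2 scale, and for Bace1, from -0.10 to 0.08. The lowest bound was that of Sorl1, at -0.33, which is 0.796 times the WT level, and the highest was that of Clu, at 0.25, or 1.19 times. Without KO library 8 the outermost bounds were -0.30 for Ide and 0.28 for Clu. The median log2 fold change of the 9 genes was -0.015 (0.014 without KO library 8), beside 0.0031 for all tested genes (0.0032).

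**Figure D1:**
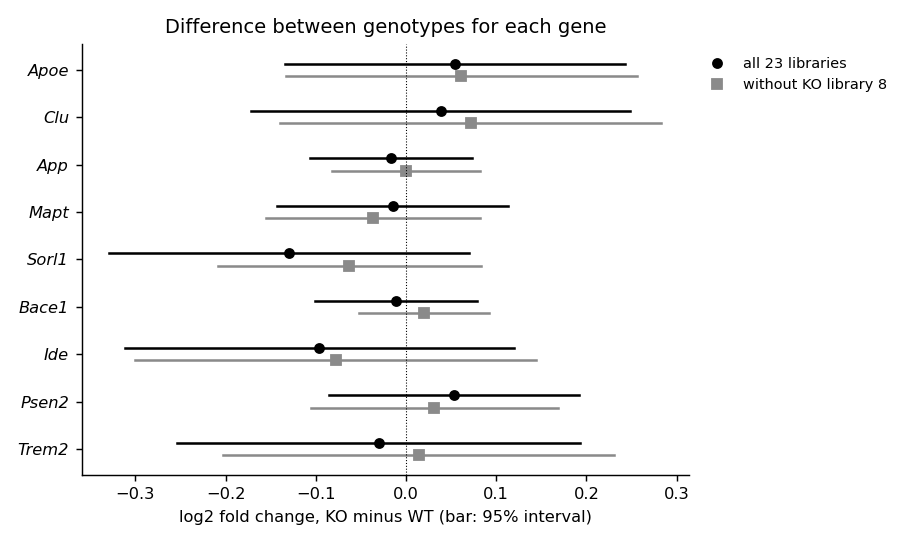
Log2 fold change of each gene, KO minus WT, on the horizontal axis. Black circles are fits with all 23 libraries, grey squares fits without KO library 8, and bars are 95% intervals. Every bar crosses 0, and the largest shift on leaving the library out is that of Sorl1, from -0.13 to -0.063.

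Levels between genes were compared in TPM, a share of all transcripts in a library that divides counts by gene length. With the union of annotated exons as length, the WT order ran from Apoe (2508 ± 324 TPM, SD, n = 12) through Clu (861 ± 133), App (394 ± 30.7), Mapt (222 ± 20.0), Sorl1 (117 ± 14.9), Bace1 (63.5 ± 4.47), Ide (36 ± 8.62) and Psen2 (10.1 ± 1.13) to Trem2 (8.07 ± 1.47). Apoe was thus the 27th most abundant of 15743 tested genes with a length, while Trem2 ranked 10392nd. KO libraries gave the same order, from 2612 ± 410 TPM for Apoe to 7.87 ± 1.27 TPM for Trem2 (SD, n = 11). Each gene exceeded the next in all 23 libraries except Psen2, which was above Trem2 in 20 of 23.

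The choice of length mattered most for Trem2. Its annotated exons cover 4946 bases but its longest coding transcript only 1088, and on that length its WT level was 28.1 ± 5.08 TPM. Trem2 then stood above Psen2, at 16.6 ± 1.87 TPM, in 22 of 23 libraries. Psen2 and Trem2 are therefore the neighbours whose order these data do not settle. On the same length Ide exceeded Trem2 in 21 of 23 libraries, and Bace1 exceeded Ide in 22.

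**Figure D2:**
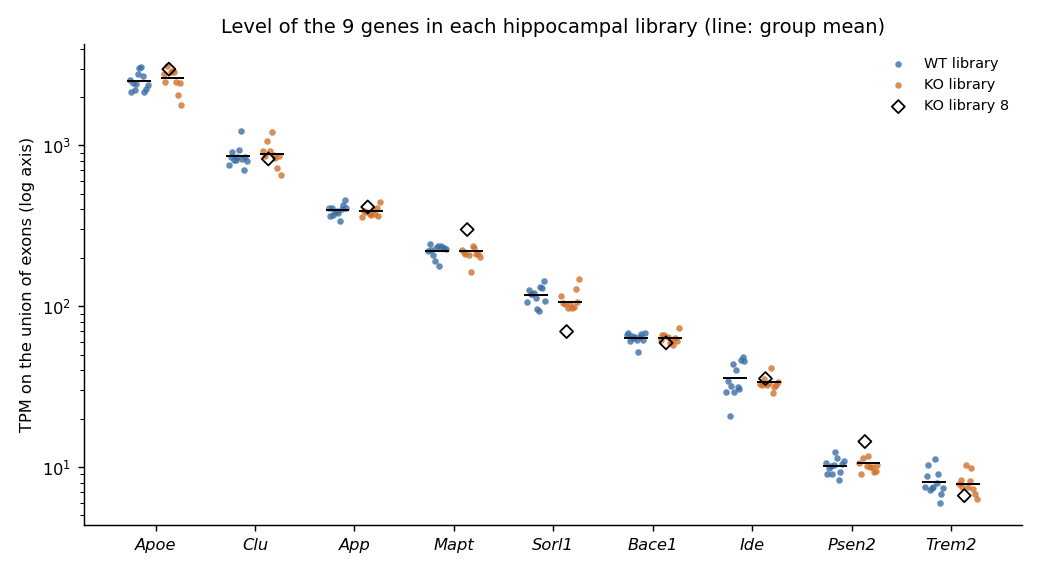
Level of each gene in each library, in TPM on the union of exons (log axis), for 12 WT (blue) and 11 KO (orange) libraries, with lines at the group means and an open diamond for KO library 8. The ranges of the genotypes overlap for all 9 genes. For Ide, WT libraries run from 20.8 to 48.6 TPM and KO libraries from 28.9 to 41.4 TPM. Mean levels range from about 2508 TPM for Apoe to 8.07 TPM for Trem2 in WT.

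App, the precursor itself, spans chr16:84949685-85173766 (minus strand, mm10). It measured 1411, 1508 and 1693 CPM in the lowest, median and highest WT library, and 1381, 1478 and 1673 CPM in KO. The groups shared nearly their whole range, with 1 KO library, library 8, below all WT libraries. The log2 fold change was -0.017 (SE 0.043, edgeR adjusted p = 0.928), and -0.00046 without KO library 8. App varied little between libraries, with a coefficient of variation of 6.01% in WT where counting error alone would give 0.625%. Its relatives, the amyloid precursor-like genes, were also abundant. Aplp1 stood at 3.18 ± 0.246 times App in TPM within a WT library (SD, n = 12), and Aplp2 at 0.712 ± 0.0522 times.

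Bace1 makes the first cut and spans chr9:45838580-45864399 (plus strand). WT libraries held 105, 120 and 130 CPM (lowest, median, highest), and KO libraries 96.5, 120 and 133 CPM. The medians nearly coincided, and KO library 8 was again the lowest. KO minus WT, on the log2 scale, was -0.011 (SE 0.043, edgeR adjusted p = 0.950), and its sign turned to 0.020 without KO library 8. The 3′ end of Bace1 overlaps Rnf214 on the opposite strand over 975 exonic bases, and the antisense genes Gm49338 and Gm16536 share another 951 and 135 with it. Whether counting used strand is not given in the sources used here, so these reads cannot be assigned with certainty. Bace2, the paralog, was scarce, at 1.67 ± 0.721 TPM in WT against 63.5 ± 4.47 TPM for Bace1.

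Psen2 can supply the catalytic subunit of gamma-secretase, and spans chr1:180227004-180263438 (minus strand). It measured 10.6, 12.9 and 15.9 CPM in WT (lowest, median, highest) and 11.6, 13.2 and 16.01 CPM in KO. The groups overlapped, with WT libraries 11 and 19 below every KO library and KO library 8 above every WT library. The log2 fold change was 0.054 (SE 0.0672, edgeR adjusted p = 0.857), and 0.032 without KO library 8.

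The rest of the cleavage machinery gave no calls either. Of the 3 alpha-secretase genes Adam9, Adam10 and Adam17, which cut App inside the amyloid segment, 0 were called, and their log2 fold changes ran from -0.084 to -0.057. Of 7 gamma-secretase genes, 0 were called, with a median of -0.0025 and a range from -0.086 to 0.059. Of 6 App-binding adaptor and related genes, 0 were called, between -0.068 and 0.069. In these lists 0 genes had an unadjusted p below 0.05, with or without KO library 8, against 5.74% and 4.11% of all tested genes. In lists this small a count of 0 is near those shares. Of all tested genes 0.0126% were called, so 0 calls in these lists, or in those below, is near the background as well.

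Ide spans chr19:37268743-37337852 (minus strand). It measured 46.02, 76.5 and 104 CPM in the lowest, median and highest WT library, and 68.0, 73.4 and 94.5 CPM in KO. Of 11 KO libraries 10 were below the WT median, while 4 WT libraries lay above every KO library and 4 lay below every KO library. Several were only just below it, with KO libraries 2, 6, 12 and 21 at 75.0 to 75.8 CPM. How many of all genes lean as far was not computed. On average Ide stood at 79.9 ± 18.1 CPM in the 12 WT libraries and at 74.7 ± 7.12 CPM in the 11 KO libraries (± SD). KO minus WT, on the log2 scale, was -0.096 (SE 0.105, 95% interval -0.31 to 0.12, edgeR adjusted p = 0.834), and -0.078 without KO library 8 (SE 0.107, edgeR adjusted p = 0.967). Leaving out WT library 5 gave -0.15 and leaving out WT library 20 gave -0.055, the ends of the range over single libraries.

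Ide varied more between WT libraries than between KO libraries, a difference that was not tested. Its coefficient of variation was 22.7% in WT and 9.53% in KO, where counting error would give 2.72% and 2.74%. Ordered by level, 17 libraries reached at most 76.9 CPM and 6 started at 89.3 CPM, a ratio of 1.16 between neighbours. The upper 6 were WT libraries 11, 15, 20, 23 and 24 and KO library 13. WT library 5 lay alone at 46.02 CPM, with 64.6 CPM next above it. The same 6 libraries stood above a gap on the TPM scale, from 35.5 to 40.2 TPM. In each of the other 8 genes the widest comparable step, with at least 4 libraries on either side, was smaller, at most a ratio of 1.14 (Trem2). This step was noticed in the ordered values and was not tested.

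The genes that tracked Ide most closely across libraries included several on its own chromosome. Over 23 libraries, the strongest Pearson correlations of log2 CPM in either direction among 14936 genes were with Pyroxd2 (r = -0.81, rho = -0.69) and Sfr1 (r = 0.79, rho = 0.74). Both lie on chromosome 19, 5.46 and 10.5 Mb from Ide. Of the 20 genes most closely related to Ide, 4 were on chromosome 19, namely Pyroxd2, Sfr1, Btaf1 and Arl3, and 3.27% of the genes searched are there. The same count for the other members ran from 0 of 20 (Clu, Sorl1) to 3 of 20 (Psen2, Mapt). Without KO library 8 it was 4 of 20 for Ide and for Mapt alike, and over the 17 libraries that were also low in choroid genes 4 for Ide and 6 for Mapt. The 4 for Ide were then Pyroxd2, Sfr1, Mamdc2 and Pdzd7, with Btaf1 and Arl3 no longer among the 20. No difference between these counts was tested. Btaf1, a TATA-binding protein factor, starts 0.343 Mb from Ide. Pyroxd2 ran from 0.872 to 6.54 CPM over all libraries, and the 6 libraries with the most Ide were the 6 with the least Pyroxd2. Sfr1, a partner in recombination repair, ran from 70.1 to 94.1 CPM, and 5 of its 6 highest libraries were among those 6. These neighbours were picked for their r out of all genes, so no p is given. Without the 2 libraries farthest from the median of Ide, r was -0.84 for Pyroxd2 and 0.78 for Sfr1.

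**Figure D3:**
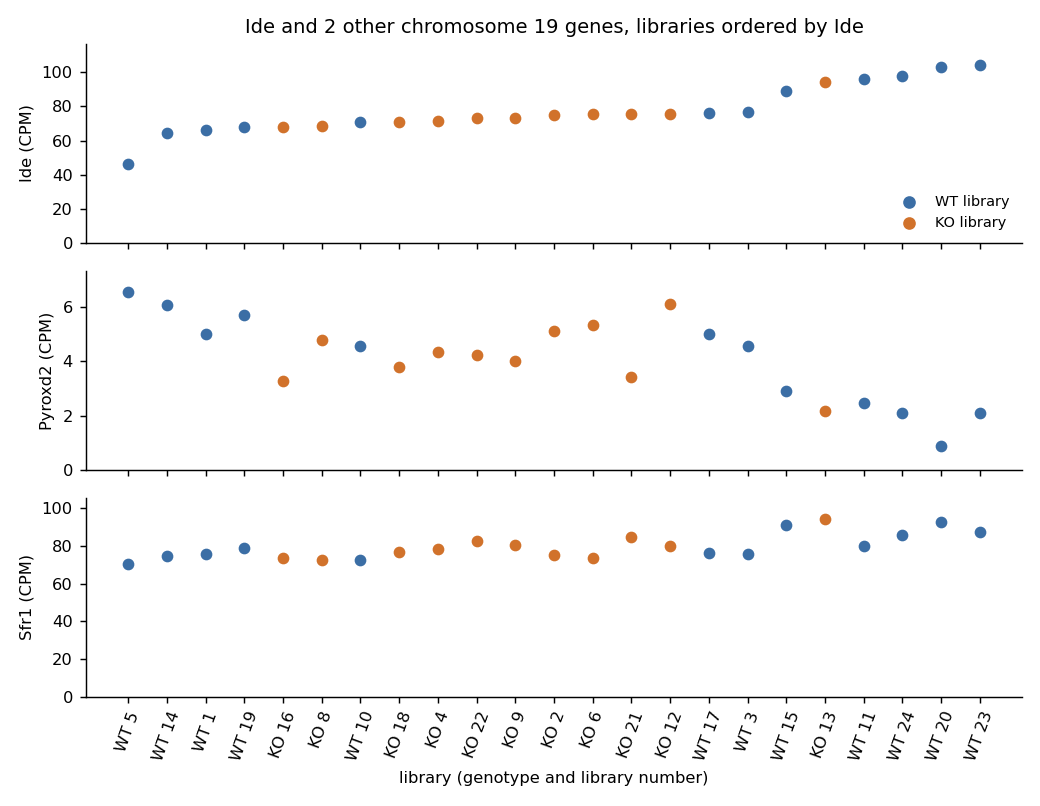
Ide (top), Pyroxd2 (middle) and Sfr1 (bottom) in CPM in each of 23 libraries, ordered from left to right by Ide, with WT libraries in blue and KO libraries in orange. Ide steps from 76.9 to 89.3 CPM before the last 6 libraries, and Pyroxd2 has its 6 lowest values there.

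Other peptidases that can cut amyloid beta were measured beside Ide. Ide stood at 16.7 ± 3.38 times Mme, the gene of neprilysin, in TPM within a WT library (SD, n = 12), and at 1.77 ± 0.417 times Ece1, an endothelin-converting enzyme. Ide exceeded Ece1 in 22 of 23 libraries, and the exception was KO library 8, at 0.674 times. Of the 8 peptidase genes listed, 0 were called in either direction, against 0.0126% of all tested genes. An unadjusted p below 0.05 was found for 1 with all libraries and 0 without KO library 8, against 5.74% and 4.11%. The median log2 fold change of the 8 was 0.051, and -0.026 without that library.

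Sorl1, the sorting receptor, spans chr9:41964720-42124297 (minus strand). WT libraries held 322, 396 and 464 CPM (lowest, median, highest) and KO libraries 202, 350 and 480 CPM. Of 11 KO libraries 8 were below the WT median, yet the highest value of all was KO library 22 and the lowest KO library 8. The log2 fold change was -0.13 (SE 0.0967, edgeR adjusted p = 0.785). Without KO library 8, whose value was the lowest, it was -0.063 (SE 0.0706, 95% interval -0.21 to 0.08, edgeR adjusted p = 0.967). An antisense gene, Gm16214, shares 185 exonic bases with it on the opposite strand. Of 14 genes for endosomal sorting, among them the related receptors Sort1 and Sorcs1 to Sorcs3 and the retromer subunit Vps35, 0 were called, with a median of -0.013 (-0.012 without KO library 8).

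Apoe, the main lipid carrier of the brain, spans chr7:19696109-19699188 (minus strand) on the chromosome that also holds Ins2. WT libraries held 1367, 1519 and 2120 CPM (lowest, median, highest), and KO libraries 1097, 1669 and 1897 CPM. The KO median was the higher, with 9 of 11 KO libraries above the WT median, but KO also held the lowest 2 of all libraries, numbers 22 and 18. KO minus WT, on the log2 scale, was 0.054 (SE 0.0915, edgeR adjusted p = 0.893), and 0.061 without KO library 8. Clu, or clusterin, spans chr14:65968483-65981547 (plus strand). It measured 715, 835 and 1363 CPM in WT and 650, 911 and 1258 CPM in KO, with the highest WT value in library 17 and the highest KO value in library 12. Its log2 fold change was 0.039 (SE 0.102, edgeR adjusted p = 0.929), and 0.072 without KO library 8. For Clu, 8 of 11 KO libraries were above the WT median.

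Both lipid carriers were high in the libraries rich in choroid plexus genes. Clu averaged 1098 CPM in those 5 libraries and 840 CPM in the 17 others without KO library 8, and 4 of the 5 lay above all 17. Apoe averaged 1888 and 1543 CPM, with 1 of 5 above all 17. Psen2 averaged 14.4 and 12.8 CPM, with 0 of 5 above all 17. Endothelial markers, 8 genes, moved with the same split, summing to 161 to 187 CPM in the 5 and 76.2 to 147 CPM in the 17. In bulk tissue, more cells of a type and more RNA per cell cannot be told apart. Among the high libraries (2 WT, 3 KO), KO differed from WT in mean log2 CPM by -0.047 for Apoe and 0.0043 for Clu. Among the 17 low ones (10 WT, 7 KO) the differences were 0.027 and 0.019. The part of choroid plexus or endothelial RNA in the spread of Apoe and Clu was not tested. Without WT library 17, the richest in choroid genes, the fold changes were 0.10 for Apoe and 0.12 for Clu on the log2 scale, and without KO library 12, the next richest, 0.032 and -0.023. Without all 5 choroid-rich libraries they were 0.042 and -0.0061, and with the choroid score as a covariate 0.028 and -0.00039. Neither gene was called in any of these fits.

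Of 11 lipid carrier, receptor and transporter genes, 0 were called. Their median log2 fold change was 0.020 both with and without KO library 8. An unadjusted p below 0.05 was found for 1 of them, against 5.74% of all tested genes, and for 0 once that library was left out, against 4.11%.

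Mapt spans chr11:104231390-104332090 (plus strand). It measured 421, 500 and 551 CPM in WT (lowest, median, highest) and 370, 484 and 579 CPM in KO. The KO libraries spread on both sides of the WT range, library 12 below it and library 8 above it. The log2 fold change was -0.015 (SE 0.0620, edgeR adjusted p = 0.954), and -0.036 without KO library 8. Of 21 genes for tau, related microtubule proteins, tau kinases and phosphatase subunits, 0 were called, and the median was -0.034 (-0.017 without KO library 8). Only Stub1, which encodes a chaperone-linked ubiquitin ligase that acts on tau, had an unadjusted p below 0.05 both with and without KO library 8. Stub1 measured 91.9 ± 7.48 CPM in WT and 98.8 ± 4.69 CPM in KO, and its fold change of 0.10 in log2 units (SE 0.0423) did not pass the threshold (edgeR adjusted p = 0.781).

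Trem2, at chr17:48346401-48354147 (plus strand), was the gene with the fewest reads. WT libraries held 8.78, 11.01 and 16.3 CPM (lowest, median, highest) and KO libraries 8.42, 11.3 and 15.4 CPM. The groups overlapped almost fully, with 6 of 11 KO libraries above the WT median. KO minus WT, on the log2 scale, was -0.030 (SE 0.108, edgeR adjusted p = 0.948) and 0.014 without KO library 8. Its coefficient of variation was 18.6% in WT, where counting error alone would give 7.04%. Of 14 microglial risk genes and Trem2 partners, including its signalling adaptor Tyrobp, 11 could be tested and 0 were called. Their median was -0.053, and -0.016 without KO library 8. Microglial marker genes summed to 421 to 619 CPM in WT and 400 to 602 CPM in KO without library 8, so their ranges overlapped too.

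Across the 10 lists together, which hold the 9 genes themselves, 86 of 89 genes could be tested. In either direction 0 were called, against 0.0126% of all tested genes. An unadjusted p below 0.05 was found for 4 genes, 2 higher and 2 lower in KO, beside 5.74% of all tested genes. Without KO library 8 it was found for 1 gene, beside 4.11%.

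KO library 8 had its own pattern among the 9 genes. Sorl1 was 0.526 times the mean of the other 22 libraries, at 202 CPM against 322 to 480 CPM. Mapt was 1.19 times that mean, at 579 CPM against 370 to 551 CPM, and Psen2 was 1.22 times, at 16.01 CPM against 10.6 to 15.9 CPM. These 3 genes lay outside the range of the other libraries on every scale used, with ratios in TPM of 0.610 for Sorl1, 1.38 for Mapt and 1.42 for Psen2. App, Bace1 and Trem2 were below all other libraries in CPM with TMM scaling, but within their range in TPM and in CPM on plain library totals. Apoe, Clu and Ide lay within the range on all 3 scales. Neuronal marker genes summed to 3509 CPM in this library against 8698 to 11448 CPM elsewhere, and astrocyte markers to 3562 against 4471 to 5658 CPM. The mean log2 CPM of the same 10 astrocyte markers, 7.83, lay within the range of the other libraries, 7.54 to 8.09, so the lower sum does not hold for the list as a whole. With 1 such library there is no replicate check.

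**Figure D4:**
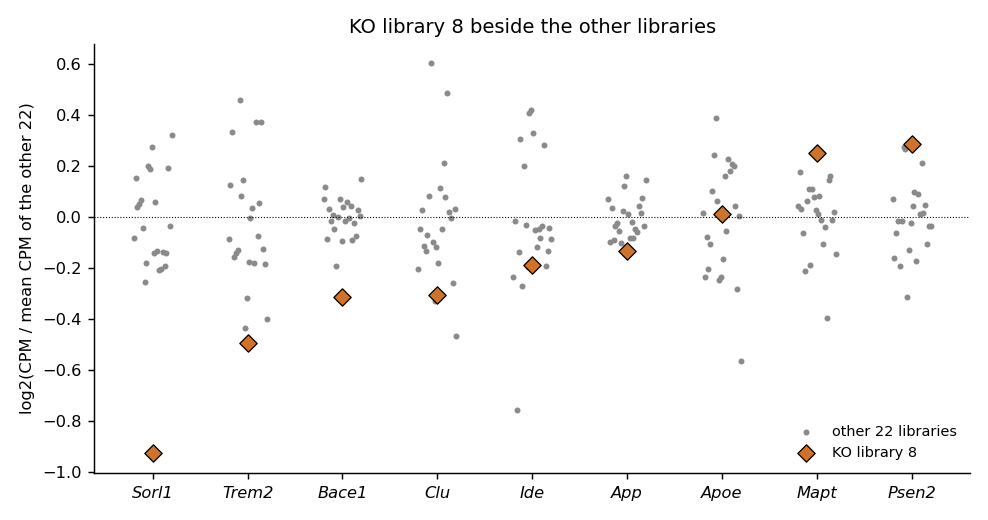
For each gene, log2 of the CPM in a library over the mean CPM of the other 22 libraries, with KO library 8 as an orange diamond and the other libraries in grey. Sorl1 lies far below every other library, at 0.526 times their mean, while Mapt and Psen2 lie above all of them.

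Several of the 9 genes varied together across libraries. Relations were computed over the 17 libraries left without KO library 8 and the 5 rich in choroid genes, on log2 CPM centred by genotype, for all 36 pairs. Apoe and Clu rose and fell together (r = 0.82, rho = 0.74, two-sided permutation test, p = 6e-05, adjusted over the 36 pairs 0.00126), with r = 0.63 without the 2 libraries farthest from the median of Apoe. Trem2 followed both, with r = 0.79 to Clu (rho = 0.78, permutation p = 0.0002, adjusted 0.0024) and r = 0.73 to Apoe (rho = 0.75, permutation p = 0.00088, adjusted 0.00792). Sorl1 ran against Apoe (r = -0.81, rho = -0.75, permutation p = 7e-05, adjusted 0.00126). Without the 2 libraries farthest from the median of the first gene of each pair (Clu, Apoe and Apoe), these r were 0.69, 0.57 and -0.65. The p-values given for these pairs and for Apoe with Clu are those of r. By rho the adjusted permutation p was 0.00864 for each of them. Another 3 pairs had an adjusted permutation p below 0.05 by Pearson's r but not by Spearman's rho: Clu and Sorl1 (r = -0.68, rho = -0.58), App and Clu (r = -0.64, rho = -0.60) and Sorl1 and Trem2 (r = -0.62, rho = -0.57). Psen2 and Sorl1 passed by rho but not by r (rho = -0.65, adjusted permutation p = 0.0406, and r = -0.58, adjusted permutation p = 0.0529). Without the 2 libraries farthest from the median of the first gene, these 4 pairs had r of -0.49, -0.62, -0.40 and -0.40. No pair with Bace1, Mapt or Ide passed by either measure, and the smallest adjusted permutation p by r was 0.0529 for Bace1 (with Clu) and 0.171 for Mapt and for Ide. Leaving out KO library 22 lowered the relation of Apoe and Clu most, to r = 0.68. With the 5 choroid-rich libraries added, Clu and Trem2 were less closely related, at r = 0.41.

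Markers of glial cells, none of them among the 9 genes, moved with the same genes. Across 45 relations of a gene to a marker list, Trem2 followed the mean of 12 microglial markers at r = 0.86 (rho = 0.86, two-sided permutation test, p = 1e-05, the smallest these permutations can give, adjusted over all 45 0.000225). Clu was related to 10 astrocyte markers at r = 0.89 (rho = 0.77, permutation p = 1e-05, adjusted 0.000225) and to the microglial markers at r = 0.88 (rho = 0.79, permutation p = 4e-05, adjusted 0.0006). Apoe was related to the astrocyte markers at r = 0.73 (rho = 0.63, permutation p = 0.00086, adjusted 0.00523), App at r = -0.75 (rho = -0.75, permutation p = 0.00052, adjusted 0.0039) and Sorl1 at r = -0.70 (rho = -0.63, permutation p = 0.00131, adjusted 0.00655). Oligodendrocyte markers, 8 genes, moved with them as well: r was 0.82 for Clu (rho = 0.71, permutation p = 0.0001, adjusted 0.0009), 0.80 for Trem2 (rho = 0.71, permutation p = 0.0001, adjusted 0.0009) and -0.72 for Sorl1 (rho = -0.69, permutation p = 0.00093, adjusted 0.00523). These became 0.59, 0.69 and -0.58 without the 2 libraries farthest from the median of the marker mean. Apoe (r = 0.67, rho = 0.55) and Bace1 (r = -0.62, rho = -0.49) passed with the oligodendrocyte markers by r but not by rho. Their adjusted permutation p by r was 0.0137 and 0.0252, and r without the 2 farthest libraries was 0.41 and -0.41. For the astrocyte and microglial relations given, leaving out the 2 farthest in the same way, r was 0.82 for Trem2, 0.75 and 0.71 for Clu, 0.50 for Apoe, -0.62 for App and -0.53 for Sorl1. All p-values given so far for marker relations are those of r. By rho, those that passed by both measures had an adjusted permutation p from 0.0018 (Trem2, microglia) to 0.0401 (Apoe and Sorl1, astrocytes). Trem2 with the astrocyte markers (r = 0.65, rho = 0.625) and Apoe with the microglial markers (r = 0.69, rho = 0.60) also passed by both measures. Sorl1 (r = -0.62, rho = -0.56) and App (r = -0.59, rho = -0.45) passed with the microglial markers by r but not by rho. Without the 2 farthest libraries r was 0.44, 0.43, -0.38 and -0.32 for these. Relations to the mean of 10 neuronal markers were weaker in r, at -0.42 for Clu, -0.34 for Apoe, -0.12 for Trem2, 0.30 for Sorl1 and 0.48 for App, and none of the 9 genes passed there (smallest adjusted permutation p = 0.121, for App). Before centring, the neuronal mean ran only from 9.16 to 9.35 log2 CPM over the 17 libraries. The astrocyte mean ran from 7.54 to 8.09, the microglial mean from 4.60 to 5.27 and the oligodendrocyte mean from 7.22 to 8.69. A mean that varies little can give a weak r, so these values do not rank neurons against glia. The difference between the glial and neuronal relations was not tested. Each value is a share of a library's reads.

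**Figure D5:**
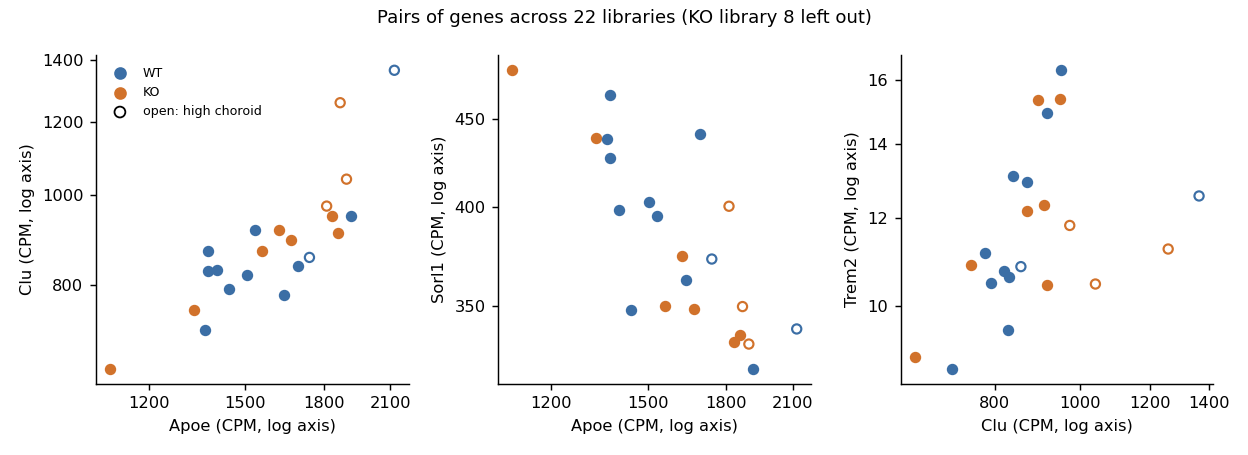
Pairs of genes across 22 libraries, KO library 8 left out, in CPM on log axes, with WT in blue, KO in orange and open circles for the 5 libraries high in choroid plexus genes. Clu rises with Apoe, Sorl1 falls with it (r = 0.82 and -0.81 over the filled circles), and Trem2 rises with Clu over the filled circles, while 4 of the 5 open ones lie to the right of all filled ones.

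The genes most like each member were read from the same 17 libraries among 14936 genes, by positive r alone and as a description. Sorl1 was closest to Prr14l, Ncoa1 and Zbtb7a (each r = 0.94). Clu was closest to Asrgl1 (r = 0.93), Hepacam, an astrocyte adhesion molecule (0.92), and Phgdh, the first enzyme of serine synthesis (0.92). Phgdh also headed the list for Trem2 (r = 0.92), before Tmem125 (0.92) and Tspan7 (0.88). Mapt was closest to Kpna2, an importin gene that lies 2.76 Mb away on the same chromosome (r = 0.92), then to Gm2237 (0.81) and R3hcc1 (0.79). Apoe was closest to Serhl (r = 0.90), Id3 (0.88) and Slc9a3r1 (0.87), and App to Pabpc5 (0.89) and C530008M17Rik (0.85). Bace1 was closest to Spindoc (r = 0.87), Clec18a (0.86) and Lrtm2 (0.85), Psen2 to Agbl3 (0.87), Dlx2 (0.83) and Ccdc187 (0.82), and Ide to Gm14685 (0.87), Nfil3 (0.87) and Sfr1 (0.83). Some of these likenesses were much lower over all 23 libraries, uncentred: r was 0.050 for Asrgl1 and 0.35 for Hepacam with Clu, and 0.12, 0.44 and 0.15 for Spindoc, Clec18a and Lrtm2 with Bace1. For the other genes named here it ran from 0.45 (Dlx2 with Psen2) to 0.96 (Ncoa1 with Sorl1).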

How the data were processed

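RNA was sequenced from hippocampus, per the labels' protocols after Trizol and column purification with a stranded mRNA kit. The submitters' processing notes name bcl2fastq, STAR and mm10. The counting program, strand setting and annotation release are not given in the sources used here. Estimated counts, 1 table for all libraries, were deposited by the authors. Between 24.6% and 27.2% of a library's non-zero values carry decimals. Columns were matched by library name.

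Counts were rounded and tested with edgeR 4.0.16 (R 4.3.3): filterByExpr, TMM, robust quasi-likelihood F test, Benjamini-Hochberg over all tested genes, threshold 0.05. TPM used GENCODE M21 exon lengths (GRCm38). Log2 CPM for relations used a prior count of 2, with 100000 permutations (scipy 1.17.1). In counts simulated for this comparison over 15704 genes, 87 of 100 genes changed by 1 on the log2 scale and 61 of 100 changed by 0.5 were called.

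Members, lists and tests were chosen with earlier results of these data known. Named genes were the members, Ins2, listed genes called or with an unadjusted p below 0.05 with and without KO library 8, family members for their levels, and the 3 genes most like each member. Some genes that this rule names are not reported here. Genes named in lists, and those beside Ide and Mapt, were otherwise chosen after their values were seen. Alternatives were RLE factors, DESeq2 1.42.0, limma voom 3.58.1, other filters, a choroid covariate, and leaving out libraries.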

Additional observations from a re-analysis of the deposited data

How the results depend on the processing

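In all 8 alternative fits and all 23 fits without 1 library, 0 of the 9 genes were called. The fold changes of Psen2, Apoe, Sorl1 and Ide kept their sign in all of these, but that of Psen2 shrank from 0.054 to 0.00012 without KO library 8 and the choroid-rich libraries. Near-zero fold changes turned sign in some, uncalled each time. Without the choroid-rich libraries Mapt was 0.0099 and Clu -0.0061. Without those and KO library 8, App was 0.0085, Bace1 0.015 and Trem2 0.040. With limma voom Trem2 was 0.075, and with the choroid covariate Clu was -0.00039. Leaving out 1 library gave -0.029 to 0.020 for Bace1, -0.036 to 0.015 for Mapt, -0.023 to 0.12 for Clu, -0.078 to 0.024 for Trem2 and -0.034 to -0.00046 for App, and, with no change of sign, 0.031 to 0.087 for Psen2, 0.027 to 0.10 for Apoe, -0.18 to -0.063 for Sorl1 and -0.15 to -0.055 for Ide. With limma voom Apoe was 0.12 and Ide -0.049. Over all genes 2 were called, against 4 with DESeq2, 4 with voom, 1 with a mean of at least 50 counts and 1 without the choroid-rich libraries, though 2 when KO library 8 was left out as well. The cause was not tested.

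With the longest coding transcript as length, WT levels in TPM were 2919 for Apoe, 1253 for Clu, 481 for App, 243 for Mapt, 94.8 for Sorl1, 51.0 for Bace1, 28.1 for Trem2 and 16.6 for Psen2. The 7 relations between genes, the gap in Ide and the values of KO library 8 were also computed in TPM, and the relations over 22 libraries. These settings were added after seeing the data, and the relations and the gap kept their direction. No paired analysis was made. The labels name no batch, and the library numbers, each used once, do not say which libraries belong together. Counting error alone would give a coefficient of variation of 7.04% for Trem2 in WT, the most of the 9 genes, and 0.625% for App.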

Other observations

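Among the 20 genes most closely related to Mapt by r in either direction over the 17 libraries low in choroid plexus genes, 6 lay on chromosome 11 (Kpna2, Coa3, Lasp1, Cyb561, Rdm1 and Galnt10), which holds 7.85% of the 14936 genes searched. Over all 23 libraries 3 of 20 did, the same count as for Psen2 on its own chromosome, which holds 6.11% of the genes searched. Over the 17 libraries the count was 4 of 20 for Ide and from 0 to 2 of 20 for the other 7 members. Kpna2 was the top gene for Mapt over 17, 22 and 23 libraries, at r = 0.92, 0.85 and 0.83. These counts were made after the values were seen and were not tested.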
